A study of Mus musculus with 24 samples.

Results

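Embryoid bodies (EBs) grown from 2 miR-203 knock-in clones of mouse induced pluripotent stem (iPS) cells were compared with the same clones at t=0, before doxycycline. The comparison holds 4 of the 12 sequenced sources of the series (8 of 24 samples, each source being read in 2 lanes): clones N5 and N9 as EBs and clones N5 and N9 at t=0. The question is the net change after a stage of low methylation: which autosomal regions and gene ends stood above, at or below their t=0 level in the EBs. The units are 233969 autosomal tiles of 10000 bp, of 248191 tested on all chromosomes, and 19553 autosomal gene ends, of 20330 tested.

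Both knock-in groups carry the doxycycline-inducible miR-203 allele. The EB group received doxycycline for 5 days as iPS cells, was then kept without the drug, and was aggregated in hanging drops; the design text places it at day 32, with 7 days of EB differentiation. The t=0 group was untreated iPS cells on feeder cells. Each clone is a single iPS line and gives 1 library per stage, so n = 2 and p-values measure only the spread between these clones. That spread is pooled over the stages and, for each tile or end, drawn toward the spread of all other tiles or ends. Clone libraries from day 10 and day 25 (5 and 20 days after the drug) and wild-type iPS cells, with 1 library per stage, stand beside the comparison; the labels give the wild-type EBs 10 days of differentiation and name no doxycycline for them, so the EB stage differs in more than genotype.

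Methylation of cytosine in CpG dinucleotides is laid down by the de novo enzymes Dnmt3a and Dnmt3b, with the cofactor Dnmt3l, and copied at replication by Dnmt1 with Uhrf1. CpG-rich promoters are usually free of it, while gene bodies, repeats and intergenic sequence are usually methylated. In the early mouse embryo a wave of demethylation is followed by remethylation as cells leave pluripotency, when promoters of germline genes become methylated, and EB differentiation is a culture model of that exit. miR-203 is a microRNA of stratified epithelia that recognises targets through its seed. The mature strand from RefSeq (GRCm38.p6), on the plus strand of chromosome 12 from 112130927 to 112130948, is shown with its seed (bases 2 to 8) in capitals because it is the RNA the allele induces.
mmu-miR-203-3p: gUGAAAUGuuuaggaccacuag

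The libraries were made by oxidative bisulfite conversion, which reads 5-methylcytosine without 5-hydroxymethylcytosine. A level is the share of methylated calls among all calls over the CpGs of a region. A CpG was covered on average by 5.65 and 6.18 calls in the EBs of N5 and N9, and by 5.42 and 5.91 calls at t=0; these 4 libraries held 118599985 to 135171952 calls each. Chromosome 8 was covered 1.36 and 1.19 times as deeply as chromosome 5 in the EBs of N5 and N9 and 1.34 times in both t=0 libraries, against 1.00 in the wild type at both stages. The first part of chromosome Y had 0.0009 and 0.0002 of the chromosome 5 coverage in the EBs of N5 and N9, but 0.037 and 0.0386 at t=0, so reads from it were present at t=0 and nearly absent in the EBs. At day 10 this share was 0.0012 in N5 and 0.0009 in N9, and at day 25 it was 0.0122 in N5 and 0.0103 in N9. In the wild type it was 0.0016 at t=0 and 0.0007 in EBs. The part of the chromosome Y reads in the results below was not tested. Both N5 libraries come from another flow cell than both N9 libraries, so flow cell and clone cannot be told apart; each clone's change lies within 1 flow cell.

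Methylation over all autosomal CpGs was higher in the EBs than at t=0 in both clones. It was 71.8% and 71.1% in the EBs of N5 and N9, against 64.8% and 64.9% at t=0; the means were 71.5% ± 0.51 and 64.8% ± 0.09 (SD, n = 2). Every EB value lay above every t=0 value, and the gain was 7.07 points in N5 and 6.23 points in N9. At day 25 the clones had stood at 48.1% ± 0.47, so the EBs ended above their start after the lowest stage measured. The wild type reached 69.6% in EBs, against 60.6% at t=0, a gain of 8.96 points. With 2 libraries against 2, an exact permutation test cannot give a two-sided p below 0.333, so these levels carry no test.

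In points, the gain was smallest where CpGs are dense. Sparse CpGs gained 7.20 points in N5 and 7.73 in N9, and CpGs of intermediate density 8.63 in N5 and 7.41 in N9. CpGs over 100 kb from a coding gene stood at 79.9% ± 1.12 in EBs and 72.6% ± 0.08 at t=0, with gains of 6.53 points in N5 and 8.22 in N9. Gene bodies stood at 74.8% ± 0.61 in EBs and 67.7% ± 0.12 at t=0, and CpG-poor gene ends at 49.95% ± 1.07 in EBs and 43.1% ± 0.20 at t=0. Dense CpGs gained 2.00 points in N5 and 0.84 in N9, to 8.85% ± 0.93 in EBs, against 7.43% ± 0.11 at t=0. The ends of genes with 60 or more CpGs in their window, called CpG-rich here, stood at 6.48% ± 0.51 in EBs and 5.08% ± 0.08 at t=0. In all of these classes both EB libraries lay above both t=0 libraries. Dense CpGs made up 7.70% and 8.75% of the calls in the EBs of N5 and N9, against 7.67% and 7.49% at t=0. In bulk DNA, more methylated molecules per cell and more cells with the molecule methylated cannot be told apart.

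**Figure D1:**
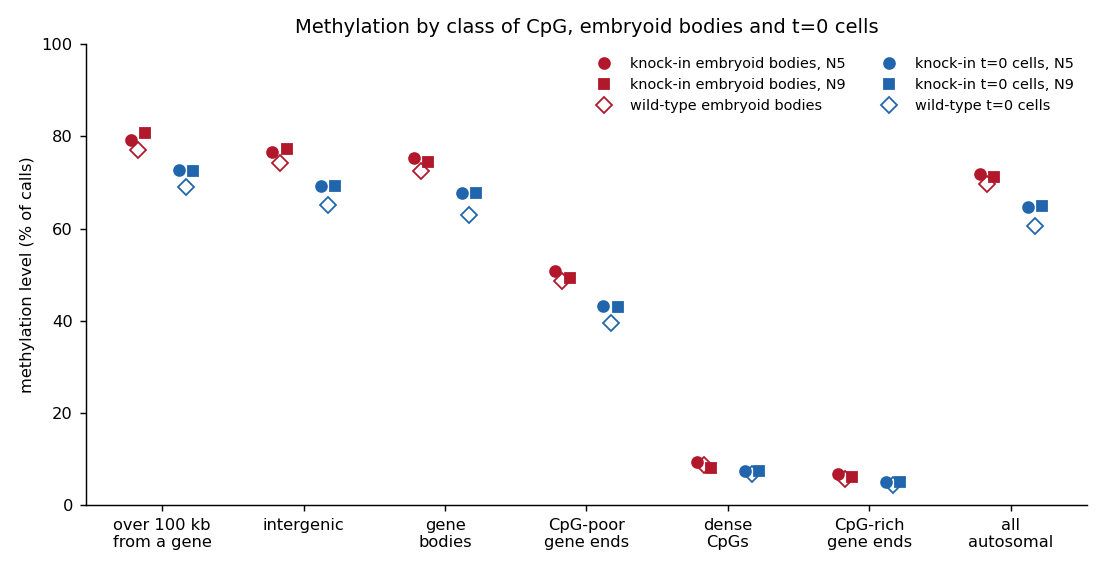
Methylation level (% of calls, y axis) of each class of CpG (x axis) in knock-in EBs (red) and knock-in t=0 cells (blue), with a filled circle for clone N5 and a filled square for clone N9, and with the wild-type library of the same stage as an open diamond. Over all autosomal CpGs the EBs of N5 and N9 sit at 71.8% and 71.1%, above the t=0 cells at 64.8% and 64.9%, while dense CpGs stay under 10% in every library.

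Tile levels lay further up the scale in the EBs than at t=0. Tiles above 80% made up 51.7% of autosomal tiles in the EBs of N5 and 59.4% in those of N9, against 12.7% and 11.6% at t=0. In the day 25 libraries they made up 0.1%. The wild type had 38.9% of tiles above 80% in EBs and 4.0% at t=0. Gene ends are a mixture of unmethylated and methylated windows: 56.2% and 57.6% of ends were below 20% in the EBs of N5 and N9, against 61.0% and 61.1% at t=0, and 16.1% and 16.6% were above 80%, against 6.2% in both t=0 libraries.

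**Figure D2:**
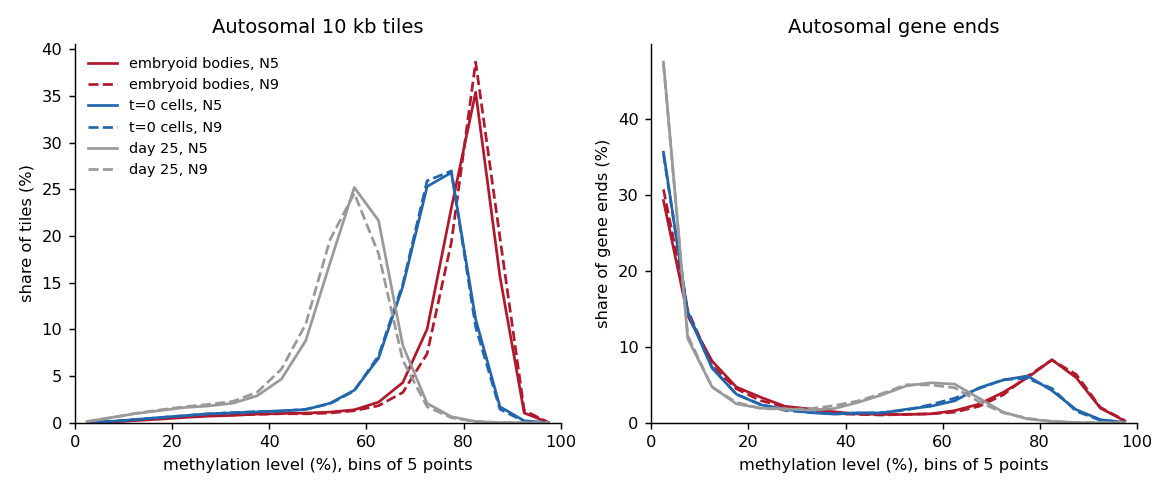
Share of autosomal tiles (left) and gene ends (right), in percent, by methylation level in bins of 5 points, for the EBs, the t=0 cells and the day 25 cells of clones N5 (solid) and N9 (dashed). The tile peak of the EBs lies above 80%, to the right of the t=0 peak and far to the right of the day 25 peak, and the stages have the same order in both clones.

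Most tiles ended above their start and very few ended below it. A tile was called above or below when edgeR's quasi-likelihood test gave an adjusted p below 0.05 (Benjamini-Hochberg over all tiles) and both clones moved the same way; it was placed at its start when it was not called and lay within 5 points in both clones, which does not show that it is equal. By these rules 135133 tiles were above (57.8% of those tested), 237 were below (0.101%), 27079 were at their start (11.6%) and 71520 were unresolved (30.6%). Both clones were higher in EBs at 202247 tiles (86.4%) and both were lower at 3106 (1.3%). The median change was 7.22 points in the knock-in clones, with 6.82 in N5 and 7.63 in N9, and 8.57 points in the wild type, which rests on libraries the knock-in change does not use. Across the tiles, the changes of N5 and N9 had a Pearson correlation of 0.22, and those of the knock-in and the wild type one of 0.29 (233969 tiles each, which share depth and CpG content within a tile).

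The split between the directions depends on the scaling. Of the called tiles 99.8% were above; when each library was centred on its genome-wide log odds, which lowered the median tile change to 0.16 on the log2 odds scale from 0.60, the calls were 2961 above and 980 below, so 75.1% were above. Without the EBs of N9 the count above was 89692, and without the t=0 cells of N9 it was 87762.

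Tiles above had a median level of 81.9% in EBs and 72.3% at t=0, after 55.6% at day 25. Tiles at their start had medians of 79.5% in EBs and 77.4% at t=0. The classes are drawn from these same levels, which widens the t=0 gap between them. In wild-type t=0 cells the median was 71.7% for tiles at their start and 69.0% for tiles above. In wild-type EBs it was 78.9% for both. Tiles below had medians of 29.1% in EBs and 36.9% at t=0; they held a median of 154 CpGs, against 75 over all tiles. The wild type was also higher in EBs at 97.2% of the tiles above, against 93.8% of all tiles.

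The class of a tile varied with its starting level in the wild type, its CpG number and its place. Tiles with 40 to 60% methylation in wild-type t=0 cells, a library the calls do not use as a contrast, were above in 66.5% of cases, against 22.8% of tiles under 20% and 29.1% of tiles at 80% or more. Of the tiles under 20%, 54.1% were at their start and 1.59% were below. Tiles with at least 100 but under 150 CpGs were above in 73.6% of cases, against 30.5% of tiles with 200 or more CpGs, of which 0.819% were below. Tiles in a gene but without a CpG-rich end were above in 66.9%, tiles over 100 kb from a coding gene in 44.1%, and tiles with a CpG-rich gene end in 27.3%, with 1.11% below. Tiles with fewer CpGs hold fewer calls, and 51.1% of tiles with under 50 CpGs were unresolved. By chromosome the share above ran between 53.0% and 62.7%, except for 68.3% on chromosome 8, which was covered more deeply in the clones.

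**Figure D3:**
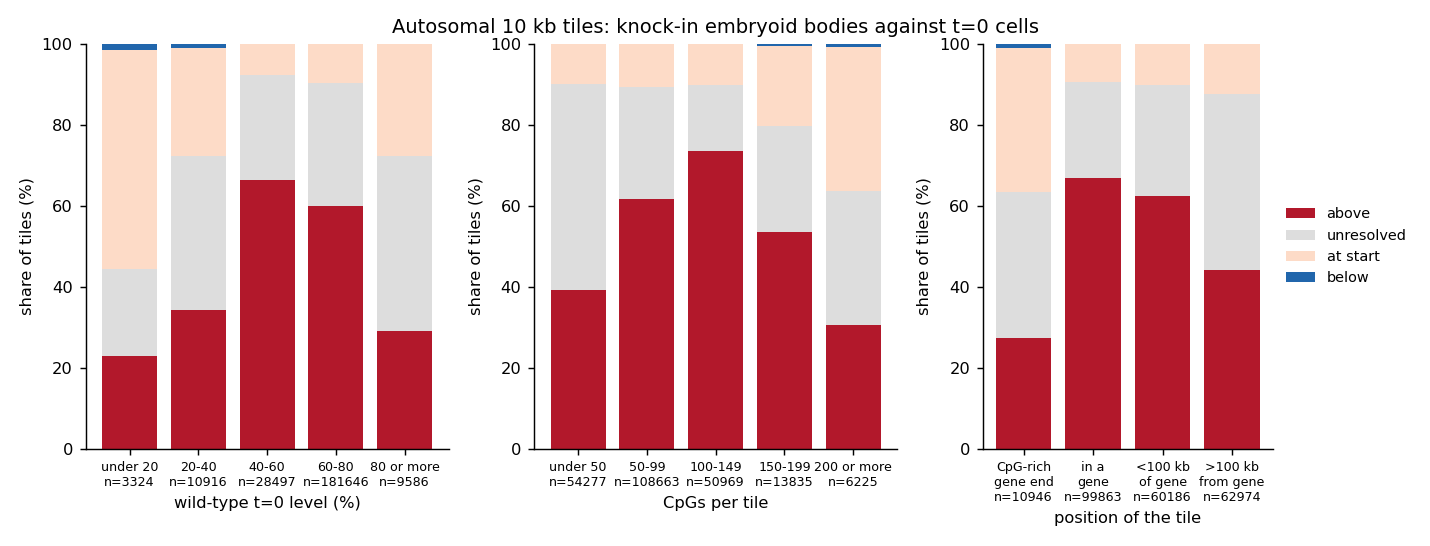
Share of autosomal 10 kb tiles (%) that were above, unresolved, at or below their t=0 level in knock-in EBs, by the level of the tile in wild-type t=0 cells (left), by its number of CpGs (middle) and by its position (right); n is the number of tiles per bar. The share above is largest at 40 to 60% (66.5%) and at 100 to under 150 CpGs (73.6%), and the thin share below is visible where levels are low and CpGs are many.

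Among tiles with at least 100 calls in each clone library, the one with the largest gain lies in Kctd16, which encodes an auxiliary subunit of GABA-B receptors. At chromosome 18, 40300001 to 40310000 (67 CpGs), its level was 80.2% and 88.7% in the EBs of N5 and N9, against 22.5% and 19.5% at t=0 (adjusted p = 5.12e-15, edgeR). The wild type had 35.3% in EBs and 20.9% at t=0, and the clones 23.6% ± 7.50 at day 25. The knock-in EBs stand apart from all other libraries at this tile. The adjoining tiles on both sides were at 64.8 to 84.4% in the knock-in EBs and 61.5 to 74.1% at t=0.

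Of the other 7 tiles with the largest gains, 2 lie in a gene and 5 between genes. Il34, a ligand of the macrophage receptor Csf1r, had an intragenic tile (chromosome 8, 110750001 to 110760000, 136 CpGs) at 65.1% and 67.4% in the EBs of N5 and N9, against 39.1% and 35.9% at t=0 (adjusted p = 1.23e-07, edgeR). A tile 2.0 kb from Gata3, a transcription factor of trophoblast and T cells, was at 46.3% and 50.5% in EBs, against 18.6% and 22.0% at t=0. A tile 1.8 kb from Tfap2a, a regulator of surface ectoderm and neural crest, was at 58.9% and 57.3% in EBs, against 31.5% and 28.3% at t=0. The EB and t=0 values do not overlap at any of them, and the wild type was higher in EBs too, by 21.4 to 24.9 points at these 3 tiles. The other named tiles with the largest gains, 18.2 kb from Ly6c2, 2.0 kb from Olfr153, 538.1 kb from Zic1 and in Pdgfd, rose by 28.5 to 41.1 points. In all, 755 tiles rose by more than 20 points.

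Called tiles above formed 22010 runs with a median length of 30 kb. The longest spanned 2010 kb of chromosome 8 (47170001 to 49180000, 180 called tiles), over genes from Stox2 to Wwc2, a regulator of Hippo signalling; its mean tile level was 80.3% in EBs and 70.0% at t=0. The next ran over 1860 kb of chromosome 5 with Lrrc8c, Lrrc8d and Zfp644, over 1500 kb of chromosome 8 with Ppp1r3b and Mfhas1, over 1300 kb of chromosome 5 with Brca2 and Pds5b, and over 1230 kb of chromosome 11 with Birc5 and Tk1. Their median changes lay between 9.28 and 9.82 points. Of the 231 runs below, 225 were single tiles; with 57.8% of tiles above and 0.101% below, and 1 uncalled tile allowed in a run, the 2 directions are not comparable in run length.

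The 237 tiles below lay mostly at genes and at CpG-rich ends. A CpG-rich gene end lay in 121 of them (51.1%, against 4.7% of all tiles), and 76.4% overlapped a gene, against 47.1% of all tiles. Genes of the Zfp zinc finger family were at 7 of them (2.95%, against 0.66% of all tiles). Their changes ran from -26.9 to -2.96 points. The wild type was also lower in EBs at 112 of them (47.3%, against 6.1% of all tiles). Membership of this class depends on the libraries and the test. With 1 library left out the count moved, and many of the 237 tiles were not called again. Limma on the logit of the level, which ignores the number of calls, called 183 tiles below, of which 107 were among the 237. The make-up given here is that of the edgeR calls.

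The largest fall was in Vwa8, which encodes a mitochondrial protein with a von Willebrand factor domain. Its tile (chromosome 14, 79140001 to 79150000, 152 CpGs) was at 27.8% and 26.5% in the EBs of N5 and N9, against 51.5% and 56.7% at t=0 (adjusted p = 1.14e-06, edgeR). The wild type was at 23.5% in EBs, against 40.6% at t=0. A tile in Skap1, an adaptor of T cell receptor signalling, was at 42.0% and 40.8% in EBs, against 62.3% and 59.8% at t=0. A tile in Neo1, a receptor of netrins and repulsive guidance molecules, was at 44.0% and 47.3% in EBs, against 66.2% and 58.3% at t=0. In these 3 tiles the groups do not overlap.

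At 2 of the 8 tiles with the largest falls the wild type had the other direction. A tile in Gm52796 (chromosome 5, 144670001 to 144680000) holds 341 CpGs but only 185 calls in the clone library with the fewest, so its depth was low. The tile was at 40% and 34.98% in the EBs of N5 and N9, against 65.3% and 56.6% at t=0. The wild type had 72.0% in EBs and 56.5% at t=0. A tile 166.7 kb from Il15 was at 61.7% and 64.4% in EBs, against 78.5% and 82.7% at t=0, with 74.9% in wild-type EBs and 71.4% in wild-type t=0 cells. The difference from the wild type passed at neither (adjusted p = 0.146 and 0.683, edgeR). The tile in Zfp993, a zinc finger gene, was also thinly covered, with 195 CpGs and 220 calls in the clone library with the fewest. It was at 21.8% and 17.6% in EBs, against 34.6% and 40.8% at t=0. Here the wild type was also lower in EBs, with 11.9% in EBs and 18.7% at t=0. Of the 5 longest runs below, each with 2 called tiles, 1 lay 129.3 kb from LOC108167368 and the others lay at Etv5, an ETS factor of pluripotent and progenitor cells (19.2% in EBs, 28.1% at t=0), Sp1, a general transcription factor of GC boxes (13.9% in EBs, 18.4% at t=0), the cytoskeleton-linking protein gene Ckap4 (43.8% in EBs, 50.7% at t=0) and the translation factor gene Eif2s2 (33.7% in EBs, 41.3% at t=0).

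About as many gene ends were at their start as in the other classes together, and the called ones were nearly all above it. A gene end is the window of 1000 bp either side of whichever end of the gene has more CpGs: 12596 windows lay at the 5′ end, 2997 at the 3′ end, and 3960 belong to genes whose strand the annotation table does not give. Of the 19553 autosomal ends, 1647 were above (8.42% of those tested), 8 were below (0.0409%), 9597 were at their start (49.1%) and 8301 were unresolved (42.5%). Among CpG-rich ends 5.21% were above and 76.5% at their start. Among CpG-poor ends 12.2% were above and 16.4% at their start. The median t=0 level of CpG-rich ends was 3.58%, so most of them could not fall by over 5 points. Of ends under 5% in wild-type t=0 cells 89.5% were at their start, against 5.75% of ends at 40 to 60%. Counts at their start, here and in the gene lists below, partly reflect this floor. Ends above had a median change of 15.8 points, and the wild type was higher in EBs at 95.2% of them, against 73.9% of all ends. Across all ends the changes of N5 and N9 had a Pearson correlation of 0.41 (19553 ends).

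The number of ends called depends on the test and on each library. edgeR's quasi-likelihood test gave the 1647 and 8 calls; limma on the logit of the level, which ignores the number of calls, gave 0 in either direction, with 4102 ends higher and 100 lower at an unadjusted p below 0.05. The count above was 297 without the EBs of N5, 671 without the EBs of N9, 386 without the t=0 cells of N5 and 445 without those of N9. Of the 8 ends below, 0 to 3 were called again when 1 library was left out. Centred on the genome-wide log odds, which lowered the median end change to 0.30 on the log2 odds scale from 0.52, 380 ends were above and 6 below.

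**Figure D4:**
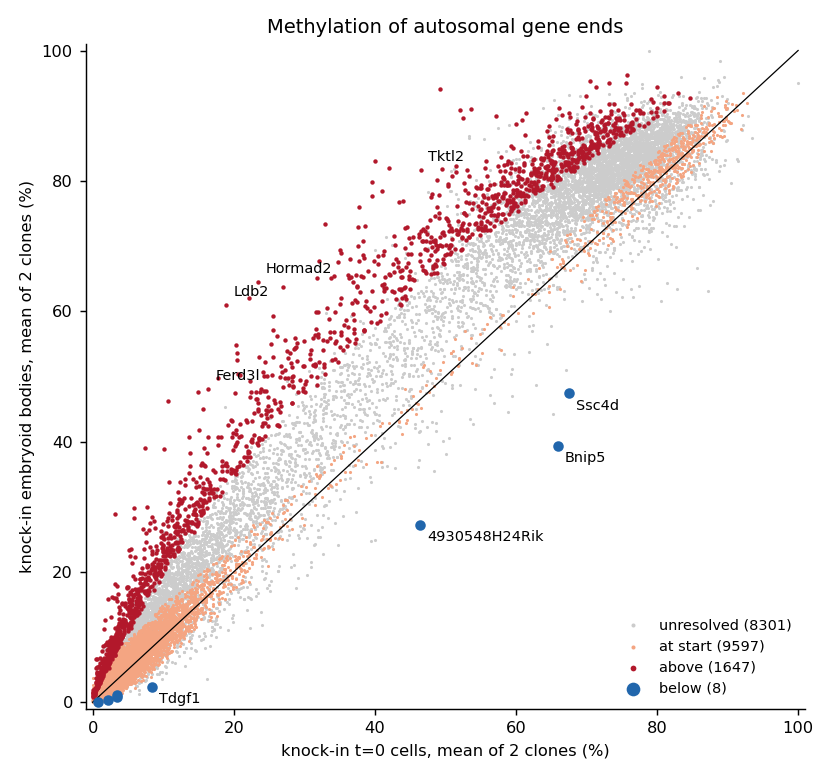
Methylation of each autosomal gene end in knock-in EBs (y axis, %) against knock-in t=0 cells (x axis, %), each the mean of 2 clones, coloured by class with the number of ends; the line marks equal levels. The 1647 ends above form a band over the line across the whole range, and the 8 ends below include 3 with t=0 levels over 40% and 5 with levels under 10%.

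Promoter sequences of 5 genes with called ends are shown: Hormad2, Asz1 and Sycp3 are meiotic or germline genes, Ferd3l is a neural transcription factor, and Tdgf1 is one of the 8 ends below. In the first 4 the EB and t=0 levels of the 250 bp before the start do not overlap. In Tdgf1 the difference was larger between 500 and 250 bp before the start, outside the bases shown, and the stretch shows a start with little methylation in both groups. Each runs 5′ to 3′ from 250 bases before to 50 bases after the RefSeq start (GRCm38.p6, the same assembly as mm10), and capitals mark the CpGs whose calls are counted.
Hormad2 promoter, chr11:4441033-4441332, minus strand: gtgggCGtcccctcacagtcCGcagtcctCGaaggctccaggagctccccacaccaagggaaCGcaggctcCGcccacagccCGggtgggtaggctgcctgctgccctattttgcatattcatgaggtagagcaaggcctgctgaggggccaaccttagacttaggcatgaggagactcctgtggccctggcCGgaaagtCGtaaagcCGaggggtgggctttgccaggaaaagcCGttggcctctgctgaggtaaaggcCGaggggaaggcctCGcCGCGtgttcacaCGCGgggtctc
Asz1 promoter, chr6:18109012-18109311, minus strand: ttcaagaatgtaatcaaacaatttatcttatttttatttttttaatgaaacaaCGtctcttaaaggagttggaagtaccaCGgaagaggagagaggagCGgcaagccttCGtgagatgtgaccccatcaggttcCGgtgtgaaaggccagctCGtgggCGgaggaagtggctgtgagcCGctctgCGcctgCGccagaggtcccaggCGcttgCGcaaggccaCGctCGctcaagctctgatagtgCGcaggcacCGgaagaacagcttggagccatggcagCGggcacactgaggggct
Sycp3 promoter, chr10:88459337-88459636, plus strand: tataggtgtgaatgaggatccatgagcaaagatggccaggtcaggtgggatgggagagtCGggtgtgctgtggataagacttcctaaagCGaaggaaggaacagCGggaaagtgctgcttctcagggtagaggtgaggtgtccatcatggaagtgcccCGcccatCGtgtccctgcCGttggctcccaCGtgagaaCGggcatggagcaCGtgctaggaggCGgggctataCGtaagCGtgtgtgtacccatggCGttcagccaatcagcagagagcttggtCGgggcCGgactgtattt
Ferd3l promoter, chr12:33928175-33928474, plus strand: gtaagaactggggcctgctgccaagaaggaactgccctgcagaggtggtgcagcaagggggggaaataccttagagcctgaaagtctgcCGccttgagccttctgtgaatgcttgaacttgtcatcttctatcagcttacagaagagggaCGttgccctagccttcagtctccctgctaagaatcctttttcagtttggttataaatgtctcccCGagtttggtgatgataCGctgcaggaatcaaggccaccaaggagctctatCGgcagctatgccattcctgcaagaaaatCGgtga
Tdgf1 promoter, chr9:110946109-110946408, minus strand: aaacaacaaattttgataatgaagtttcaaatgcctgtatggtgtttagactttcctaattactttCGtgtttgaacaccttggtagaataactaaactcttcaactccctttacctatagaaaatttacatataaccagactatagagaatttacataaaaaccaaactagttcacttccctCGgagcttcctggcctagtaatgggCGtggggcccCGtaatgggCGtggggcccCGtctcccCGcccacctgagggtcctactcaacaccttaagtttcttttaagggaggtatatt

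Over the 16 CpGs of the Hormad2 stretch, the level was 42.1% and 50% in the EBs of N5 and N9, against 11.1% and 11.2% at t=0. Over the 17 CpGs of Asz1 it was 79.4% and 71.7% in EBs, against 31.1% and 31.3% at t=0. Over the 15 CpGs of Sycp3 it was 64.1% and 61.7% in EBs, against 41.8% and 38.6% at t=0. The EB values lie above the t=0 values at all 3. Ferd3l has 6 CpGs in its stretch, at 70.4% and 67.8% in EBs, against 17.1% and 25.0% at t=0. The 7 CpGs of Tdgf1 had low levels in both groups, with 1.72% and 0% in EBs (0 of 55 calls in N9, which allows up to 5.45%), against 2.04% and 8.22% at t=0. Calls per library and stretch ran from 35 to 184. The E-box CACGTG, a palindrome that MAX dimers recognise, occurs 2 times in the Sycp3 stretch and in none of the other 4; it is in 6.6% of the 1439 starts above and in 8.35% of all 15393 starts tested. TCCCGC, the core of an E2F-type site, is on either strand in 21.2% of the starts above and in 27.9% of all starts tested.

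**Figure D5:**
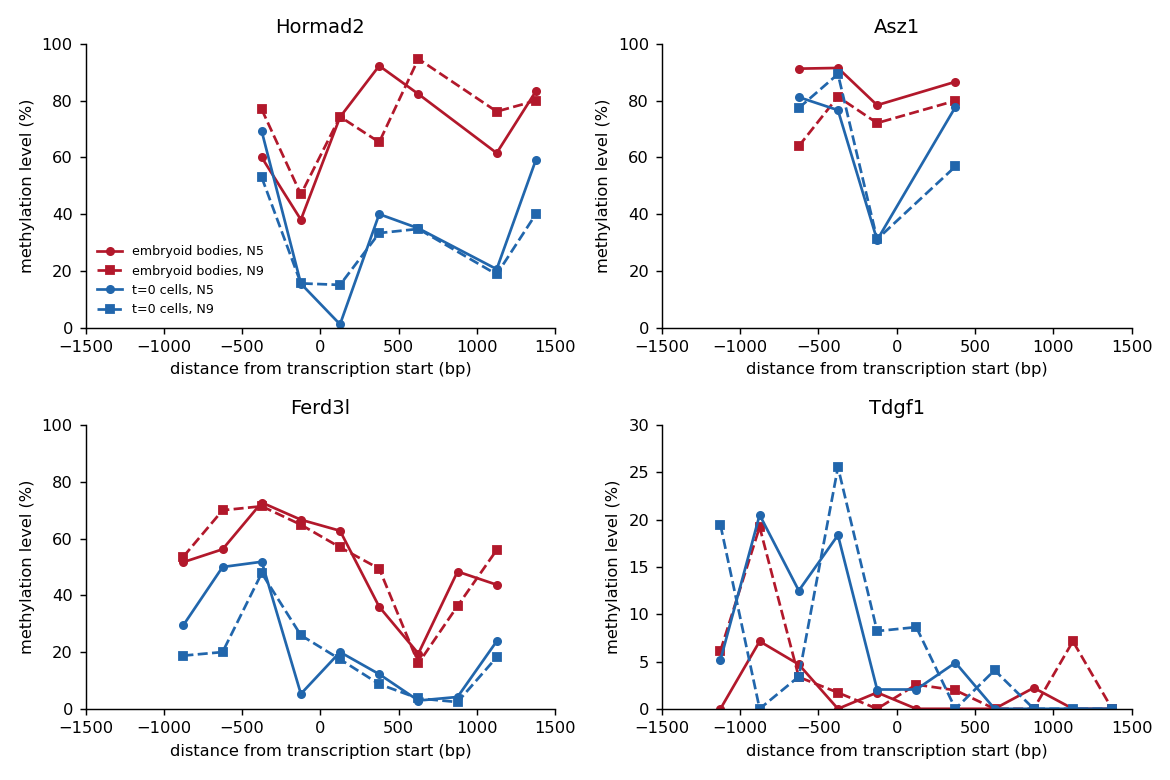
Methylation level (%, y axis) by distance from the transcription start in bins of 250 bp (x axis) for Hormad2, Asz1, Ferd3l and Tdgf1, in the EBs (red) and t=0 cells (blue) of N5 (solid) and N9 (dashed); bins with fewer than 10 calls in any of these libraries are not drawn, and the Tdgf1 axis ends at 30%. Hormad2 stands at 74.2% and 74.4% in the EBs just after the start, against 1.14% and 15.1% at t=0, and Tdgf1 at 0% and 1.71% in the EBs between 500 and 250 bp before it, against 18.4% and 25.6% at t=0.

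Among ends with at least 30 calls in each clone library, the largest mean gains were at Ldb2, Hormad2 and Gm10461. Hormad2, a protein of the meiotic chromosome axis, was at 62.2% and 66.7% in the EBs of N5 and N9, against 22.8% and 24.1% at t=0 (adjusted p = 0.000228, edgeR). Ldb2, which links LIM homeodomain factors, was at 59.4% and 62.6% in EBs, against 12.8% and 25.0% at t=0. Lpar5, a receptor for lysophosphatidic acid, was at 63.6% and 63.8% in EBs, against 26.9% and 27.0% at t=0. In all 3 the groups are far apart, and wild-type EBs were higher than wild-type t=0 cells as well, at 60% in EBs and 34.4% at t=0 for Hormad2. Nhlh2, a neuronal bHLH factor, was at 68.8% and 66.7% in EBs, against 31.6% and 32.7% at t=0. Cavin2, a coat protein of caveolae, was at 79.2% and 72.7% in EBs, against 37.6% and 38.0% at t=0. These 5 genes rose in both clones, by 33.9 to 46.6 points. Gm10461, Vwde, Serpinb5 (maspin), Tktl2 (a transketolase-like enzyme) and Prss27 (a serine protease) are also among the 12 largest gains, with mean gains of 34.5 to 39.9 points.

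After Tktl2, the largest gains among CpG-rich ends were at Ferd3l, Ctnnd1 with Btbd18, Dmrtc2 and Noxa1. Ferd3l, a bHLH factor of the ventral neural tube, was at 46.5% and 49.6% in the EBs of N5 and N9, against 19.3% and 13.5% at t=0 (adjusted p = 0.000493, edgeR). Dmrtc2, a DM-domain factor of male germ cells, was at 60.6% and 45.3% in EBs, against 24.5% and 26.7% at t=0; its window overlaps that of Lypd4. Ctnnd1, which encodes p120 catenin of adherens junctions, shares its window with Btbd18, a germline regulator, and was at 85.9% and 72.5% in EBs, against 53.7% and 47.0% at t=0. Noxa1, an activator of NADPH oxidase, was at 83.7% and 75.6% in EBs, against 53.0% and 52.4% at t=0. No EB value of these ends lies within the t=0 range.

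Of the 8 ends below, 3 lie at 3′ ends with intermediate levels. Bnip5 was at 37.8% and 40.9% in the EBs of N5 and N9, against 68.3% and 63.5% at t=0 (adjusted p = 0.0056, edgeR). Ssc4d, of the scavenger receptor family, was at 49.3% and 45.5% in EBs, against 62.2% and 72.9% at t=0. 4930548H24Rik was at 25.4% and 29.1% in EBs, against 46.9% and 45.9% at t=0. The window at the other end of the gene did not fall; its change was positive, with 1.08, 0.26 and 0.39 on the log2 odds scale for Bnip5, Ssc4d and 4930548H24Rik. The wild type was lower in EBs at all 3, with changes of -20.7 to -17.2 points.

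The other 5 ends below are CpG-rich and had low levels at both stages, at most 8.98% in a clone library. Tdgf1 (Cripto, the coreceptor of Nodal in pluripotent cells) was at 1.5% and 3.21% in the EBs of N5 and N9, against 8.98% and 7.74% at t=0 (adjusted p = 0.0125, edgeR). The wild type had 2.18% in EBs and 11.2% at t=0, and the clones 2.15% ± 0.83 at day 25, close to the EB level. L3mbtl2, a chromatin protein of a variant Polycomb complex, was at 1.07% and 1.22% in EBs, against 3.65% and 3.26% at t=0. Klf3, a Krüppel-like repressor whose window overlaps Gm38457, had no methylated call in EBs (0 of 524 in N5 and 0 of 775 in N9, which allow up to 0.573% and 0.387%), against 0.93% and 0.65% at t=0. Gm34296 and Rnf165, a ubiquitin ligase of neurons, had changes of -2.68 and -1.79 points on average. The groups do not overlap at any of the 5, and the largest fall in a clone is that of Tdgf1 in N5, whose change was -7.48 points. These limits cover counting error only.

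The Mir203 gene and the methylation enzymes were looked up whatever their change. The Mir203 window (chromosome 12, 112129955 to 112131955, 127 CpGs) was at 16.5% and 15.3% in the EBs of N5 and N9, against 14.0% and 13.8% at t=0 (adjusted p = 0.72, edgeR), after 6.03% ± 1.44 at day 25. Dnmt3b was at 7.74% and 4.41% in EBs, against 3.02% and 5.21% at t=0, and its groups overlap (adjusted p = 0.45). Dnmt3l, whose window overlaps that of Aire, was at 54.1% and 48.1% in EBs, against 62.6% and 56.3% at t=0 (adjusted p = 0.349). The 3′ end of Dnmt3a was at 79.0% and 77.8% in EBs, against 66.5% and 68.1% at t=0 (adjusted p = 0.108). Its groups are apart, but the end did not pass the test. Methylation does not show the expression of these genes, and the windows do not check the knock-in allele.

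Ends of pluripotency genes went both ways. Of the 25 measured, 3 were above, 1 was below, 12 were at their start and 9 were unresolved, with a median change of 0.39 points, against 2.38 over all ends; 12.0% were above, against 8.42% of all ends. With 1 library left out, 1 or 2 were above. Lin28a, an RNA-binding protein that blocks let-7, was at 5.11% and 5.42% in the EBs of N5 and N9, against 0.40% and 0.60% at t=0 (adjusted p = 0.00259, edgeR). Esrrb, an orphan nuclear receptor of naive cells, was at 72.9% and 74.7% in EBs, against 56.9% and 54.8% at t=0. Dppa3 (Stella), which protects the oocyte genome from methylation, was at 28.9% and 29.5% in EBs, against 14.4% and 16.5% at t=0 (adjusted p = 0.0453), while the wild type had 13.3% in EBs and 24.01% at t=0. Tdgf1 is the end below. Nanog was at 8.60% and 14.6% in EBs, against 10.8% and 10.0% at t=0 (adjusted p = 0.813), with 2.43% in wild-type EBs and 12.5% in wild-type t=0 cells. Pou5f1 was at 35.04% and 29.8% in EBs, against 28.6% and 31.2% at t=0 (adjusted p = 0.793), with 7.69% in wild-type EBs and 15.5% in wild-type t=0 cells. For Dppa3, Nanog and Pou5f1 the test of the difference from the wild type gave adjusted p = 0.312, 0.377 and 0.86. The median change of the list was -1.35 points in the wild type, and 1 of its ends was called above once the libraries were centred on the genome-wide log odds.

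Germline genes, which in somatic cells are kept silent by promoter methylation, had a median change of 12.4 points, against 2.38 over all ends. Of 27 measured, 6 were above, 0 were below or at their start and 21 were unresolved, and both clones were higher at 24. The share above was 22.2%, against 8.42% of all ends. The list had a median t=0 level of 43.99%, against 10.04% over all ends. Its median changes were 13.4 points in N5 and 10.4 in N9. Ends of any gene at 40 to 60% in wild-type t=0 cells had 11.5 points in N5 and 11.0 in N9, with 19.1% above. The contrast with all ends therefore does not separate germline genes from starting level. Without the EBs of N5, 0 were above, without those of N9 6, without the t=0 cells of N5 1 and without those of N9 2; limma called 0. Asz1, a piRNA pathway protein, was at 84.7% and 73.2% in the EBs of N5 and N9, against 59.04% and 50.9% at t=0 (adjusted p = 0.0066, edgeR). Sycp3, of the synaptonemal complex, was at 71.6% and 69.6% in EBs, against 43.3% and 52.5% at t=0. Smc1b, the meiotic cohesin subunit whose window overlaps Ribc2, was at 25.7% and 25.6% in EBs, against 8.40% and 11.7% at t=0. Tdrkh, a Tudor protein of the piRNA pathway, was at 27.5% and 26.1% in EBs, against 12.0% and 11.4% at t=0. In these 4 the groups do not overlap. The wild-type median change of the list was 9.91 points, and 2 of its ends were called above after centring.

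Of 44 imprinted genes, 0 passed in either direction by edgeR's quasi-likelihood test, 13 were at their start and 31 were unresolved, with a median change of 2.48 points. At an unadjusted p below 0.05 with both clones moving the same way, 8 of the 44 were higher and 0 lower, and limma called 0. That count leaves out ends such as Sgce, whose clones moved apart. Over all 19553 ends, 5008 were higher and 98 lower at an unadjusted p below 0.05 (edgeR), without the rule on the clones. H19, a maternally expressed noncoding RNA, was at 87.9% and 78.8% in the EBs of N5 and N9, against 69.6% and 72.6% at t=0 (adjusted p = 0.0675). The paternally expressed Sgce, whose window overlaps that of Peg10, differed between the clones: N9 had 6.84% in EBs and 32.1% at t=0, and N5 had 16.9% in EBs and 15.8% at t=0 (adjusted p = 0.0793). Phlda2 and Kcnq1, of the same cluster on chromosome 7, were at 9.18% and 9.47% in EBs, against 5.08% and 3.70% at t=0, for Phlda2, and at 24.8% and 24.5% in EBs, against 14.4% and 14.5% at t=0, for Kcnq1.

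Hox genes, which set position along the body axis, had ends above and none below. Of 39 Hox ends, 13 were above, 0 were below, 18 were at their start and 8 unresolved, with a median change of 4.72 points in the knock-in and 1.80 in the wild type. The share above was 33.3%, against 8.42% of all ends. Without the EBs of N5, 0 were above, without those of N9 3, and without the t=0 cells of N5 or of N9 2; limma called 0. Hoxb1, which patterns the hindbrain, was at 38.0% and 28.2% in the EBs of N5 and N9, against 17.1% and 13.2% at t=0 (adjusted p = 0.0125, edgeR). Hoxc6 was at 19.4% and 15.3% in EBs, against 6.26% and 6.52% at t=0, and Hoxd10 at 22.6% and 22.3% in EBs, against 10.2% and 9.88% at t=0. Of 57 ends of other homeobox and paired box genes, 6 were above (10.5%) and 39 at their start; with 1 library left out, 1 to 4 were above. Among them the B cell factor gene Pax5 was at 33.0% and 19.9% in EBs, against 8.33% and 7.69% at t=0. Centred on the genome-wide log odds, 1 Hox end and 3 of the others were called above.

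Each lineage list had ends above, and in each of the 5 the count was lower with any 1 of the 4 libraries left out. The shares above were 21.1% for neuroectoderm, 29.2% for mesoderm, 15.0% for endoderm, 26.3% for blood and 12.5% for trophoblast, against 8.42% of all ends. Without the EBs of N5 the counts above were 1 for neuroectoderm, 0 for mesoderm, 0 for endoderm, 1 for blood and 1 for trophoblast, and without the t=0 cells of N5 they were 1, 0, 1, 0 and 1 in the same order. Without the EBs of N9 they were 2, 3, 2, 2 and 1, and without the t=0 cells of N9 they were 1, 3, 1, 0 and 1; limma called 0 in each list. Of 19 neuroectoderm ends, 4 were above; Pax6, a regulator of eye and forebrain, was at 10.5% and 6.96% in the EBs of N5 and N9, against 1.85% and 1.75% at t=0 (adjusted p = 0.00484, edgeR), and Neurog1 and Emx2 rose by 4.58 and 2.80 points. Of 24 mesoderm and heart ends, 7 were above, among them the sarcomere gene Ttn at 82.6% and 80.2% in EBs, against 42.2% and 60.9% at t=0, and the heart factor genes Tbx5 at 69.6% and 65.5% in EBs, against 38.5% and 48.1% at t=0, and Gata4 at 81.1% and 73.7% in EBs, against 52.5% and 59.6% at t=0. Of 20 endoderm and liver ends, 3 were above. Sox17, a factor that specifies endoderm, was at 19.6% and 14.9% in EBs, against 6.45% and 4.78% at t=0, and the pancreatic factor gene Pdx1 was at 31.4% and 20.6% in EBs, against 8.80% and 12.0% at t=0. Of 19 blood and endothelial ends 5 were above, with Cdh5, the cadherin of endothelium, at 80.5% and 85.1% in EBs, against 65.5% and 64.9% at t=0, and of 16 trophoblast ends 2 were above. None of these ends was below. The median changes of the lists were 1.04, 5.92, 6.34, 5.63 and 5.78 points for neuroectoderm, mesoderm, endoderm, blood and trophoblast. Their median t=0 levels were 1.82%, 24.9%, 14.1%, 42.5% and 20.1% in that order, against 10.04% over all ends. After centring, 1, 3, 2, 0 and 1 ends of these lists were called above, in the same order.

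Other lists set these counts in context. Of 13 housekeeping ends, 0 were above or below, 11 were at their start and the median change was 0.29 points. Of 13 measured genes of the 2-cell-like state, 0 passed in either direction by edgeR's quasi-likelihood test, at levels already high, with a median change of 6.11 points; 8 of the 21 in the list had too few calls. At an unadjusted p below 0.05 with both clones higher, 1 housekeeping end and 0 ends of the 2-cell-like state were counted, and limma called 0 in both lists. Over all ends 8.42% were above, and 5008 of 19553 were higher at an unadjusted p below 0.05 (edgeR). With 13 ends in each list, a difference from all ends was not tested. Of 23 genes of the methylation machinery, 2 were above (8.70%, against 8.42% of all ends) and 14 were at their start. They were Mbd1, a methyl-CpG-binding protein, and Dnmt3c, a de novo methyltransferase of male germ cells that the annotation lists as Dnmt3b-ps1. Of this list 0 were above without the EBs of N5, without the t=0 cells of N5, after centring and with limma, and 1 without the EBs of N9 or without its t=0 cells. Markers of fibroblasts, the cell type of feeders, were above at 6 of 20 ends, against 8.42% of all ends. Of these markers 0 were below, 5 were at their start and 9 were unresolved. Their median change was 12.8 points, against 2.38 over all ends and 8.60 for these markers in the wild type. The list had a median t=0 level of 29.15%, against 10.04% over all ends. Its median changes were 10.8 points in N5 and 15.35 in N9. Ends of any gene at 20 to 40% in wild-type t=0 cells had 10.5 points in N5 and 8.93 in N9. A gain of these markers beyond that of their starting level was not tested. After centring 3 were above, and 2 to 4 with 1 library left out. The collagen genes Col1a2 and Col1a1 were at 26.4% and 22.7% (Col1a2) and 46.2% and 52.5% (Col1a1) in the EBs of N5 and N9, against 8.47% and 6.79% (Col1a2) and 28.2% and 16.3% (Col1a1) at t=0. Coverage of chromosome Y, given above, was also lower in the clones' EBs than at t=0, but it was already low at day 10. In the wild type it was low at t=0 too. The part of feeder cells in the changes was not tested.

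The net change of the knock-in clones was set against that of the wild type in the same fit, with each stage of the wild type, which has no replicate, assumed to vary as the clones do. By edgeR's quasi-likelihood test, 3 tiles (0.00128% of those tested) and 3 gene ends (0.0153%) differed at an adjusted p below 0.05. At an unadjusted p below 0.05 the counts were 13632 of 233969 tiles and 977 of 19553 ends. Such a threshold passes a share of about 0.05 where nothing differs, and these counts lie near it. The Kctd16 tile gained 63.4 points in the knock-in and 14.4 in the wild type (adjusted p = 4.15e-05). A tile in Ubxn2b, a cofactor of the segregase p97, was at 26.1% and 30.7% in the EBs of N5 and N9, against 33.9% and 40.5% at t=0, while the wild type had 41.2% in EBs and 17.6% at t=0 (adjusted p = 0.00249). A tile in Esrrb (chromosome 12, 86470001 to 86480000, 161 CpGs) was at 20.4% and 21.8% in EBs, against 14.2% and 14.5% at t=0, while the wild type had 8.62% in EBs and 19.3% at t=0 (adjusted p = 0.0123). The 2 tiles on each side of it stood at 36.5 to 76.7% in the knock-in EBs, and none of them differed from the wild type. The Kctd16 call held with each of the 4 libraries left out; the Ubxn2b call was lost without the t=0 cells of N9 (adjusted p = 0.0617), and the Esrrb call without the EBs of N9 (0.0865), the t=0 cells of N5 (0.0886) or those of N9 (0.0617). Limma on logit levels called 0 tiles and 0 ends different. At an unadjusted p below 0.05 it counted 12585 of 233969 tiles and 950 of 19553 ends, again near a share of 0.05.

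The 3 ends that differed were those of Gm50595, Fam169a and Iqcg. Gm50595 was at 37.5% and 46.6% in the EBs of N5 and N9, against 28.6% and 28.2% at t=0, while the wild type had 4.17% in EBs and 25.5% at t=0 (adjusted p = 0.00661, edgeR). Fam169a was at 13.3% and 9.34% in EBs, against 2.97% and 9.02% at t=0, while the wild type had 4.58% in EBs and 24.03% at t=0 (adjusted p = 0.0263). Iqcg, a calmodulin-binding protein of cilia and sperm flagella whose window overlaps Rpl35a, was at 1.18% and 0.48% in EBs, against 0.25% and 0.14% at t=0, while the wild type had 0.11% in EBs and 3.07% at t=0 (adjusted p = 0.0384). The knock-in change of none of these ends passed on its own, and the wild type was lower in EBs at all 3. All 3 calls were lost when the fit held autosomes other than chromosome 8 alone (adjusted p = 0.0605, 0.25 and 0.333, in the order named above). The Gm50595 call held with each library left out, the Fam169a call was lost without the EBs of N5 (0.178) or the t=0 cells of N5 (0.145), and the Iqcg call without the EBs of N5 (0.314), the t=0 cells of N5 (0.114) or those of N9 (0.145).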

How the data were processed

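The authors deposited, for each CpG, the count of methylated calls and the coverage (all calls) in columns whose names end in .C and .cov, per the file headers; mm10, BWA and Picard 1.91 appear in the submitters' processing notes, where no role is stated for them. The caller of methylation is not named in the labels or headers. The table holds 21875444 CpGs, of which 12916174 were called in every library; all 32 value columns match a sample, and 0 were unmatched. Each clone column holds both lanes of its library, and the 2 wild-type columns of a stage were summed as lanes of 1 library. Duplicate removal and the mapping of repeats, which could move these counts, lie before the deposited values and were not examined here.

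Calls were summed over 10000 bp tiles (at least 30 calls in every library) and gene windows of 2000 bp (at least 10 calls and 5 CpGs). Gene positions came from a RefSeq table of GRCm38.p6, the assembly of mm10; the files pair no genes with CpGs. edgeR 4.0.16 (limma 3.58.1, R 4.3.3) was fitted to methylated and unmethylated counts of 12 libraries in 8 groups, with 4 residual degrees of freedom, by its quasi-likelihood test, two-sided, with Benjamini-Hochberg adjustment over all tiles or windows, chromosome X included; the chain was tested on simulated data. The prior degrees of freedom of the edgeR fit, which weigh the spread of all features, were 36.1 for tiles and 27.5 for ends. Tables and plots used Python 3.11.15, numpy 2.4.6, pandas 2.3.3 and matplotlib 3.10.9.

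Named windows are, in each direction, the 12 largest mean changes among called ends with at least 30 calls in each clone library and the 6 largest among CpG-rich ones, the 4 lowest p-values of each gene list, Mir203, Dnmt3a, Dnmt3b, Dnmt3l, Pou5f1, Nanog and Dppa3 and those whose change differed from the wild type; named tiles are the 8 largest changes with at least 100 calls, and the 5 longest runs. The members and the 14 lists (378 entries) were chosen with earlier results of these data known. A clone keeps its name across stages, so the labels pair the samples; the clones' deviations from their stage means had correlations of -0.08 to 0.02 between stages across tiles. Some windows that this rule names are not reported here. Alternatives were the clone as a replicate block, limma on logit levels with a pseudocount of 0.5 calls, other coverage minimums, tile sizes, windows and margins, centring on the genome-wide log odds, fewer libraries in the fit, and each library left out in turn.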

Additional observations from a re-analysis of the deposited data

Results flagged for a closer look

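By edgeR's quasi-likelihood test the net change, EBs minus t=0, passed for a difference between the knock-in clones and the wild type at 3 tiles and 3 gene ends. Each stage of the wild type is 1 library, so its spread is borrowed from the clones; limma called none of the 6 (adjusted p = 0.223 to 0.834), and 4 of the 6 calls were lost with some library left out, the exceptions being the tile in Kctd16 and the end of Gm50595. The 3 end calls were lost on autosomes other than chromosome 8 alone (adjusted p = 0.0605 to 0.333, edgeR). On the log2 odds scale the knock-in change exceeded that of the wild type by 3.31 at the tile in Kctd16 and by 2.01 at the tile in Esrrb, and the difference was -2.27 at the tile in Ubxn2b. At gene ends it was 3.84 for Gm50595, 3.72 for Fam169a and 6.65 for Iqcg. The Iqcg value rests on levels of 1.18% and 0.48% in the EBs of N5 and N9, against 0.25% and 0.14% at t=0, and on 0.11% in wild-type EBs and 3.07% in wild-type t=0 cells. The wild-type EBs have another labelled time of differentiation than those of the clones.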

How the results depend on the processing

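Over CpGs called in every library and over CpGs with at least 5 calls, the changes of all autosomal CpGs and of the density and position classes moved by less than the clone spread. By chromosome, the change on 17 was 6.79 points, against 5.64 and 5.46 over these CpGs, and with at least 5 calls that of chromosome 1 was 7.20 against 6.87 and that of 12 was 7.18 against 6.62, each beyond the clone spread. With the clone as a replicate block the counts were 133911 tiles above and 235 below, and 1688 ends above and 12 below; no count moved by over 1.5 times and no call on a named end changed under this pairing. Centring gave 2961 tiles above and 980 below, 380 ends above, and 17 of the 57 list members above. With limma the counts were 0 for ends above, ends below, list members, and tiles and ends that differ from the wild type. With 1 library left out there were 87762 to 111370 tiles above, 157 to 397 below, 35608 to 44176 at their start and 1 to 7 that differ from the wild type, and 297 to 671 ends above, 2 to 8 below and 1 to 4 that differ, with 8 to 30 list members above. Autosomes other than chromosome 8 alone gave 0 ends that differ. A margin of 10 points put 78027 tiles and 13376 ends at their start, and one of 2.5 points put 6002 tiles and 6403 ends there. Windows of 500 bp either side gave 14 ends below; the other end of each gene gave 2619 above and 1 below. Of 1012 values for 69 named ends, 721 kept direction and side of the threshold, 272 lost the call and 19 changed sign. On the log2 odds scale, those were Nanog centred (-0.03) and without the EBs of N9 (-0.30, with a range of -0.30 to 0.56 over the left-out libraries), and Pou5f1 centred (-0.06), without the EBs of N5 (-0.01, with a range of -0.01 to 0.34) and at its other end (-0.12). At the other end of the gene the change was also -0.20 for Hormad2, -0.06 for Prss27, 1.08 for Bnip5, 0.26 for Ssc4d, 0.39 for 4930548H24Rik, 0.76 for Tdgf1, 0.36 for Gm34296, 0.52 for L3mbtl2, 1.00 for Rnf165, 1.36 for Klf3 and 0.19 for Dnmt3l. At the transcription start it was 1.07 for Bnip5, 0.20 for Ssc4d and 0.39 for 4930548H24Rik. Of 214 values for named tiles, 210 kept direction and call and 4 lost the call. The cause of these moves was not tested, apart from the smaller number of samples or windows that an alternative holds. Depth limits single windows: the median of the lowest call number among the clone libraries was 372 per tile and 369 per gene end, and 42.5% of ends were neither called nor within 5 points in both clones.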

Other observations

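The X chromosome, which the counts leave out, had 6127 of 14222 tiles above their start (43.1%), 4 below and 1365 at their start by the same rule. Of its tiles 47.3% were unresolved, against 30.6% of autosomal tiles. Its median tile change was 8.05 points in N5 and 8.13 in N9, against 6.82 and 7.63 on autosomes. Over all its CpGs the gain was 8.47 points in N5 and 7.15 in N9, against 7.07 and 6.23. The lower share above therefore does not show a smaller gain. Its coverage relative to chromosome 5 was 0.642 and 0.511 in the EBs of N5 and N9, against 0.520 and 0.523 at t=0.

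Starting level separated gene ends as it did tiles. Of ends with 40 to 60% methylation in wild-type t=0 cells, 19.1% were above their start in knock-in EBs, against 4.42% of ends under 5% and 3.87% of ends at 80% or more. Ends with 30 to 59 CpGs were above in 16.0% of cases, against 9.11% of ends with fewer CpGs. The ends with fewer CpGs were unresolved in 80.7% of cases, against 60.2%. Their median changes were 7.31 points in N5 and 8.46 in N9, against 6.69 and 6.01 for ends with 30 to 59. The share above therefore does not rank the size of the gain here. At the end of Setdb1, a histone methyltransferase of the KRAB zinc finger pathway, the level was 23.4% and 19.6% in the EBs of N5 and N9, against 12.2% and 10.1% at t=0 (adjusted p = 0.0771, edgeR); the wild type had 12.5% in EBs and 23.97% at t=0, and the difference from the wild type had an adjusted p of 0.376.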
